A study of Drosophila melanogaster with 6 samples.

Results

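The neighbouring loci of InR and E2f1 on chromosome arm 3R carry a dense cluster of Cmi peaks. By number of peaks it is among the densest in the embryo, larva and prepupa lists, but not in the S2 list. The cluster was taken as every peak that overlaps 3R from 17390001 to 17500000 (genome build dm3, positions counted from 1), a stretch of 110 kb. It holds 129 of the 37144 peaks in the 4 deposited lists: 43 of 15372 embryonic peaks, 22 of 6487 larval, 51 of 9236 prepupal and 13 of 6049 S2 peaks. The interval was chosen by its peak counts in these same lists, so the counts below describe it and support nothing.

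InR encodes the insulin receptor of the fly, a receptor tyrosine kinase that binds insulin-like peptides and drives growth through the kinases PI3K and Akt. When the pathway is inactive, the transcription factor foxo enters the nucleus and is known to raise InR transcription. E2f1 encodes the activating E2F factor, which pairs with Dp, is held in check by the retinoblastoma protein Rbf, and turns on genes for DNA replication in dividing and endocycling cells. Cmi, also named Lpt, belongs to the MLR complex, which carries the histone methyltransferase Trr and deposits H3K4 monomethylation at enhancers. Long introns and intergenic stretches of genes that are regulated in many tissues often hold several such enhancers.

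Cmi was mapped by chromatin immunoprecipitation and sequencing with an antiserum against this subunit, in whole wandering larvae of the third instar, in whole white prepupae and in S2 cells, a line of embryonic origin. The labels give the genotype Y cn bw sp to every library, S2 cells included. They state neither sex nor the number of animals, and no other treatment. Embryo peaks come from data published earlier, and the sample labels do not give their genotype. Their deposited list is named E0-8, with no unit stated. Each list rests on 1 immunoprecipitated library or, for embryos, on an unstated number. No replicate check exists, sequencing depth is unknown, and no p-value is given. A whole animal mixes many tissues, so a peak bound strongly in a few cells and one bound weakly in many cannot be told apart.

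By name, Release 6 of the RefSeq gene table places InR (FBgn0283499) directly beside E2f1 (FBgn0011766), with no protein-coding gene between them. CG15498 is the protein-coding neighbour on the InR side and Archease the one on the E2f1 side. The span of InR contains the noncoding RNA genes lncRNA:Irar and lncRNA:CR44034. That of E2f1 contains the microRNA genes mir-998 and mir-11 and the noncoding genes asRNA:CR46055, lncRNA:CR46056 and lncRNA:CR46057. That table uses another build than the peaks, so the match of the interval to these genes was taken as given, no peak was placed on a promoter, exon or intron, and which of the genes a peak lies in is not stated here. No genome sequence of dm3 was used, and no peak sequence is shown.

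**Figure D1:**
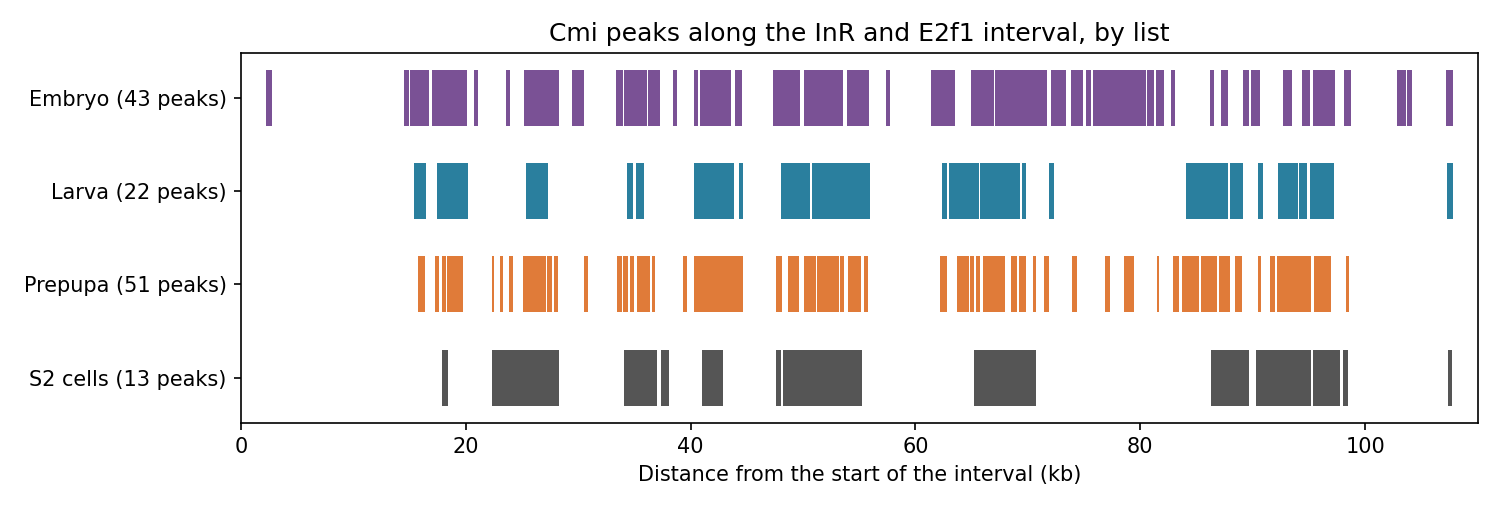
Cmi peaks along the InR and E2f1 interval. The horizontal axis is the distance from the start of the interval in kb, each row is a peak list, and each block is a peak drawn to its width. The 13 S2 peaks and 22 larval peaks form broad blocks where the 51 prepupal peaks are finer, and embryonic peaks fill a stretch after 73 kb that is empty in larvae and S2 cells.

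The lists covered similar amounts of the interval with very different numbers of peaks. Embryonic peaks covered 52.9 kb (48.11% of the interval), larval peaks 36.6 kb (33.26%), prepupal peaks 38.9 kb (35.41%) and S2 peaks 36.3 kb (33.00%). Prepupae thus had 51 peaks on 38.9 kb, against 22 larval peaks on 36.6 kb. S2 cells reached almost the larval coverage with 13 peaks. The embryo list was the one that covered more sequence than the others.

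Peak width ran opposite to peak number among the larva, prepupa and S2 lists. The median width in the interval was 640 bp for embryonic peaks (range 280 to 4737), 1087.5 bp for larval peaks (332 to 5205), 440 bp for prepupal peaks (220 to 3843) and 2330 bp for S2 peaks (411 to 7008). The ranges overlapped widely. Over the whole lists the medians were 537 bp for embryos, 792 bp for larvae, 491.5 bp for prepupae and 711 bp for S2 cells. The interval's median was therefore above that of its list in embryos, larvae and S2 cells, and below it in prepupae. Gaps between neighbouring peaks had a median of 525.5 bp for embryos, 982 bp for larvae, 420.5 bp for prepupae and 3423 bp for S2 cells.

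**Figure D2:**
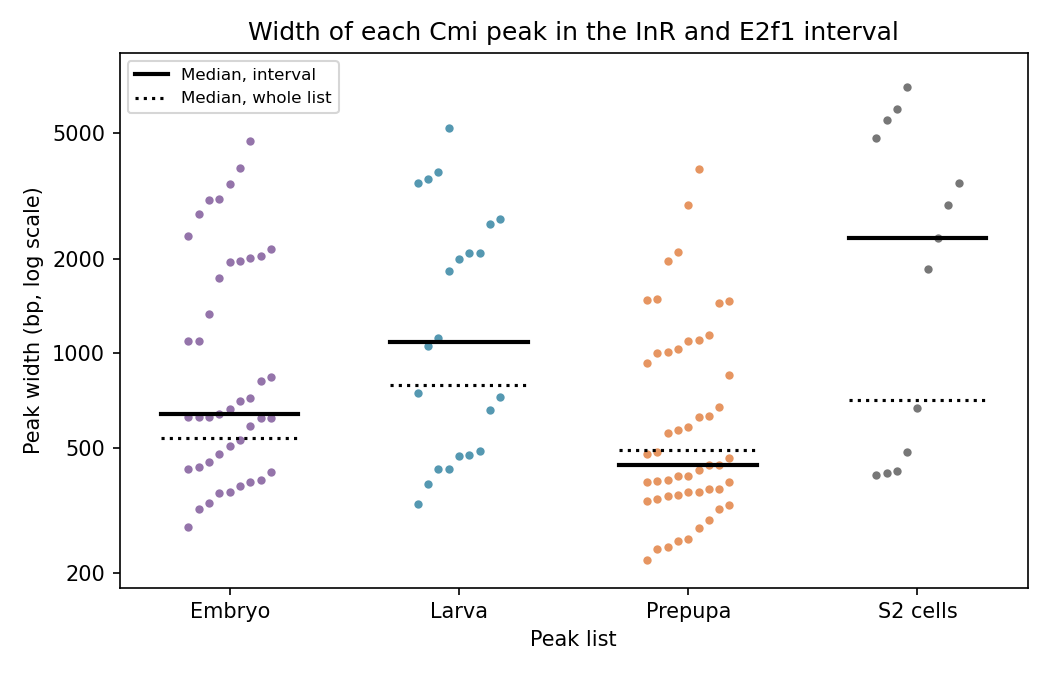
Width of each Cmi peak in the interval (bp, log scale), by list. Points are single peaks, solid lines the median in the interval and dotted lines the median of the whole list. Most prepupal points lie low, around a median of 440 bp, and the S2 points spread up to 7008 bp.

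Set against the main chromosome arms, the counts and the covered sequence placed the lists in different orders. A stretch of 110 kb held on average 13.72 embryonic, 5.87 larval, 8.32 prepupal and 5.26 S2 peaks. The interval stood at 3.13 times this average for embryos, 3.75 for larvae, 6.13 for prepupae and 2.47 for S2 cells. For covered sequence it stood at 4.45 times the average of the arms for embryos, 5.25 for larvae, 6.28 for prepupae and 5.37 for S2 cells. Prepupae were highest on both scales, and S2 cells were lowest for the number of peaks but not for covered sequence. When the arms were divided into windows of this length, 0 of 1091 other windows reached the 51 prepupal peaks, and the next held 40. At least as many peaks as in the interval were present in 5 other windows for embryos, 5 for larvae and 136 for S2 cells. At least as much covered sequence was present in 3 other windows for embryos, 4 for larvae, 3 for prepupae and 22 for S2 cells. The interval's limits were set around the cluster, which favours it in such a ranking.

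Stretches without peaks bounded the cluster on the left in 3 lists and on the right in all 4. The first larval, prepupal and S2 peaks began 15403, 15706 and 17907 bp into the interval, and the nearest peaks to its left lay 43062, 117500 and 186598 bp outside it. In embryos a peak of 508 bp lay 2208 bp inside the left limit and one of 405 bp lay 2139 bp outside it. On the right, the last peaks of embryos, larvae and S2 cells ended 2207, 2195 and 2240 bp before the limit and the last prepupal peak 11402 bp before it. The nearest peaks beyond the limit were 65372 bp away for embryos, 45279 bp for larvae, 20557 bp for prepupae and 148180 bp for S2 cells. The longest stretch inside the interval without a peak of any list ran from 17392717 to 17404492 (11776 bp).

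Sharing between lists was high in the interval. Of the 22 larval peaks, 21 (95.5%, exact binomial 95% interval 77.2 to 99.9) overlapped a prepupal peak by at least 1 bp, where the share in the whole larva list was 68.2%. The same number overlapped an embryonic peak (list share 67.0%), and 17 (77.3%, 54.6 to 92.2) overlapped an S2 peak (list share 44.6%). Only 1 larval peak, of 475 bp at 17497331 to 17497805, had no prepupal counterpart, and it met a peak in embryos and in S2 cells. These intervals cover the number of peaks only, and peaks of a single locus are not independent.

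With all peaks counted, prepupal peaks met the embryo list more often than the larva list, an order that depended on the setting. Of the 51 prepupal peaks, 44 (86.3%, 73.7 to 94.3) overlapped an embryonic peak, 34 (66.7%, 52.1 to 79.2) a larval peak and 33 (64.7%, 50.1 to 77.6) an S2 peak. In the whole prepupa list the share was 54.0% for embryos, 61.5% for larvae and 37.8% for S2 cells, so there larvae stood above embryos. The 66.7% for larvae is close to its list share. With every peak set to 500 bp around its midpoint, the interval's shares were 41.2% for embryos, 33.3% for larvae and 15.7% for S2 cells. Among the 22 prepupal peaks above their list's median width, 17 (77.3%) met an embryonic and 19 (86.4%) a larval peak of that kind. With equal numbers of widest peaks per list, the shares were 72.2% for embryos and 77.8% for larvae. That number was 6049, which dropped many more of the 15372 embryonic than of the 6487 larval peaks. Whole-list shares at these settings are not given, so whether the order changes there too is not known.

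Embryonic peaks of the interval overlapped prepupal peaks in 30 of 43 cases (69.8%, 53.9 to 82.8; list share 28.0%). They overlapped larval and S2 peaks in 22 cases each (51.2%, 35.5 to 66.7), where the list shares were 30.4% and 24.6%. Of the 13 S2 peaks, 12 overlapped an embryonic peak (92.3%, 64.0 to 99.8; list share 55.9%), 10 a larval peak (76.9%, 46.2 to 95; list share 47.4%) and 11 a prepupal peak (84.6%, 54.6 to 98.1; list share 41.1%). Wide peaks and close neighbours also raise overlap, and how far they account for these shares was not tested.

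Peaks with a counterpart in all 3 other lists were 16 of 43 embryonic (list share 12.8%), 15 of 22 larval (27.2%), 24 of 51 prepupal (23.7%) and 9 of 13 S2 peaks (29.6%). Peaks found in no other list were 10 of 43 embryonic (list share 56.0%), 0 of 22 larval (9.53%), 1 of 51 prepupal (22.3%) and 1 of 13 S2 peaks (32.3%). The lone prepupal peak measured 395 bp and lay from 17429312 to 17429706. The lone S2 peak, of 670 bp, lay from 17427372 to 17428041. The other unshared peaks all belonged to embryos, and the widest of these measured 621 bp (17470572 to 17471192) and 529 bp (17465128 to 17465656).

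Counted by base pair, 17209 bp of the interval lay under peaks of all 4 lists, 14246 bp under 3, 15360 bp under 2 and 22457 bp under 1. Sequence under all 4 lists made up 24.8% of the sequence under any peak in the interval, against 8.3% over the whole series. Of the larval sequence in the interval, 77.1% also lay under prepupal peaks, where the whole larva list had 59.6%. In the other direction, 72.4% of the prepupal sequence lay under larval peaks, where the whole prepupa list had 66.6%.

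Merging overlapping or touching peaks of all lists gave 29 regions in the interval, of which 8 (27.6%) had a peak in every list, where 1539 of the 19648 regions of the series (7.83%) did. These 8 regions covered 51.3 kb and took up 24 of 43 embryonic, 20 of 22 larval, 40 of 51 prepupal and 10 of 13 S2 peaks. The share of each whole list's peaks in such regions is not given. The widest of the 8 ran from 17451376 to 17463346 (11971 bp), with 5 embryonic, 5 larval, 10 prepupal and 1 S2 peak. Merging links neighbours, so a shared region can hold peaks without a counterpart in every list. The embryonic peak from 17451376 to 17453527 in this region, for example, had 0 bp under S2 peaks. The next region ran from 17437321 to 17445959 (8639 bp), with 3 embryonic, 2 larval, 7 prepupal and 2 S2 peaks. There embryonic peaks covered 7766 bp, larval peaks 7787 bp, prepupal peaks 6424 bp and S2 peaks 7430 bp. Coverage in this region was thus nearly equal while the number of peaks was not.

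The other 6 shared regions ranged from 3223 to 7898 bp and held 1 to 4 embryonic, 1 to 4 larval, 2 to 6 prepupal and 1 or 2 S2 peaks. Their coverage was less even. From 17412296 to 17418261, an S2 peak of 5960 bp spanned nearly the whole region, where larvae had a single peak of 1989 bp, prepupae 6 peaks on 3757 bp and embryos 2 peaks on 3395 bp. From 17473743 to 17479715, larval peaks covered 4885 bp, prepupal peaks 4498 bp and S2 peaks 3465 bp, but embryonic peaks only 1348 bp.

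Of the regions that lacked a list, 10 (34.5% of all 29) were found in embryos alone, where the share over the series was 43.79%. Another 6 (20.7%) held embryonic and prepupal peaks, where the series had 3.42%. In the one from 17419436 to 17420846, the embryonic and prepupal peaks shared only 2 bp. Prepupae alone and S2 cells alone had 1 region each (3.4%), where the series had 10.46% and 9.92%. Single regions combined embryo with larva and prepupa, embryo with prepupa and S2, and embryo with larva and S2. No region of the interval combined larva and prepupa without embryo. Over the series such regions made up 3.81% without S2 and 1.63% with S2, so that few or none would fall among 29 regions at those shares. The lack of a called peak is no proof that Cmi was absent.

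The 6 regions of embryo and prepupa were not spread evenly. From 17462298 to 17474030, a stretch of 11733 bp, no larval peak was called, and S2 cells had none in the overlapping stretch from 17460702 to 17476250 (15549 bp). In the larval gap, embryonic peaks covered 9126 bp and prepupal peaks 2729 bp. It holds the widest embryonic peak of the interval, 4737 bp from 17465783 to 17470519, the 120th widest of the embryo list. Larvae and S2 cells had 0 bp under it. Prepupae had 3 small peaks there, of 390, 370 and 407 bp, which together covered 24.6% of it. Of the 6 embryo and prepupa regions, 4 lay in this stretch. The prepupal peaks wholly inside the stretch numbered 6 and were 239 to 556 bp wide.

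Among the 11 bins of 10 kb, covered sequence differed most between lists at the same place. In the bin from 17460001 to 17470000, embryonic peaks covered 8.88 kb, larval peaks 0.43 kb, prepupal peaks 2.36 kb and S2 peaks 0.70 kb. In the 2 bins from 17430001 to 17450000 the values were close, at 6.10 and 5.79 kb for embryos, 5.76 and 5.84 kb for larvae, 5.85 and 4.84 kb for prepupae and 4.03 and 5.25 kb for S2 cells. S2 cells had their highest bin at 17480001 to 17490000, with 7.56 kb, where embryos had 4.81 kb, larvae 5.15 kb and prepupae 5.32 kb. In the bin from 17400001 to 17410000 S2 cells had 0.49 kb, and embryos, larvae and prepupae had 5.18, 3.56 and 2.88 kb.

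**Figure D3:**
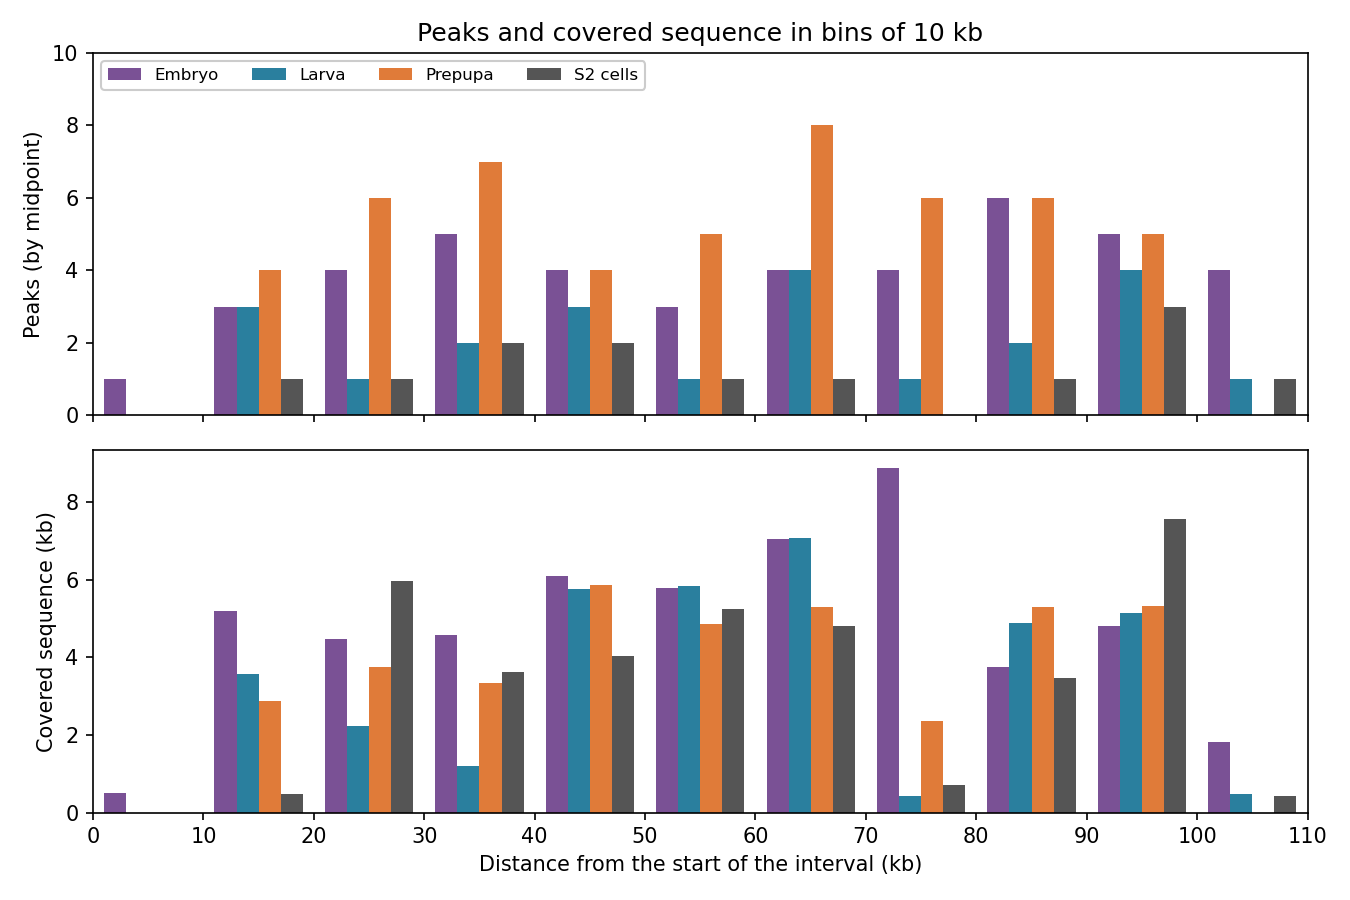
Number of peaks by midpoint (upper panel) and covered sequence in kb (lower panel) in the 11 bins of 10 kb along the interval, for embryos, larvae, prepupae and S2 cells. Prepupal counts exceed larval counts in 9 of the bins. Larval and prepupal covered sequence is close in some bins (5.76 and 5.85 kb from 40 to 50 kb) and unlike in others (1.20 and 3.35 kb from 30 to 40 kb). The bin from 70 to 80 kb has 8.88 kb in embryos and 0.43 kb in larvae.

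Whether the many prepupal peaks divide broader larval peaks was examined peak by peak. Of the 22 larval peaks, 10 (45.5%, exact binomial interval 24.4 to 67.8) overlapped 2 or more prepupal peaks, where the share in the whole larva list was 18.4%. That list share includes larval peaks with no prepupal counterpart. Among larval peaks with a prepupal counterpart it was 10 of 21 in the interval and 26.9% in the whole list. These 10 larval peaks contained or touched 28 prepupal peaks. Their median width was 2626 bp (473 to 5205). The 11 larval peaks with a single prepupal peak had a median of 659 bp (332 to 1829).

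Such division followed width in the interval as it did in the whole list. Among larval peaks of 1464 bp or more, the widest of 4 equal classes of the list, 9 of 10 in the interval met 2 or more prepupal peaks, and 50.6% did so in the whole list. They met 2.90 prepupal peaks on average, against 1.74 in the list. These 10 peaks were also wider than their class, with a median of 2626 bp against 2145 bp. In the class from 792 to 1463 bp it was 0 of 2 (list share 15.8%), in that from 479 to 791 bp 0 of 4 (4.76%) and in the narrowest 1 of 6 (2.29%).

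**Figure D4:**
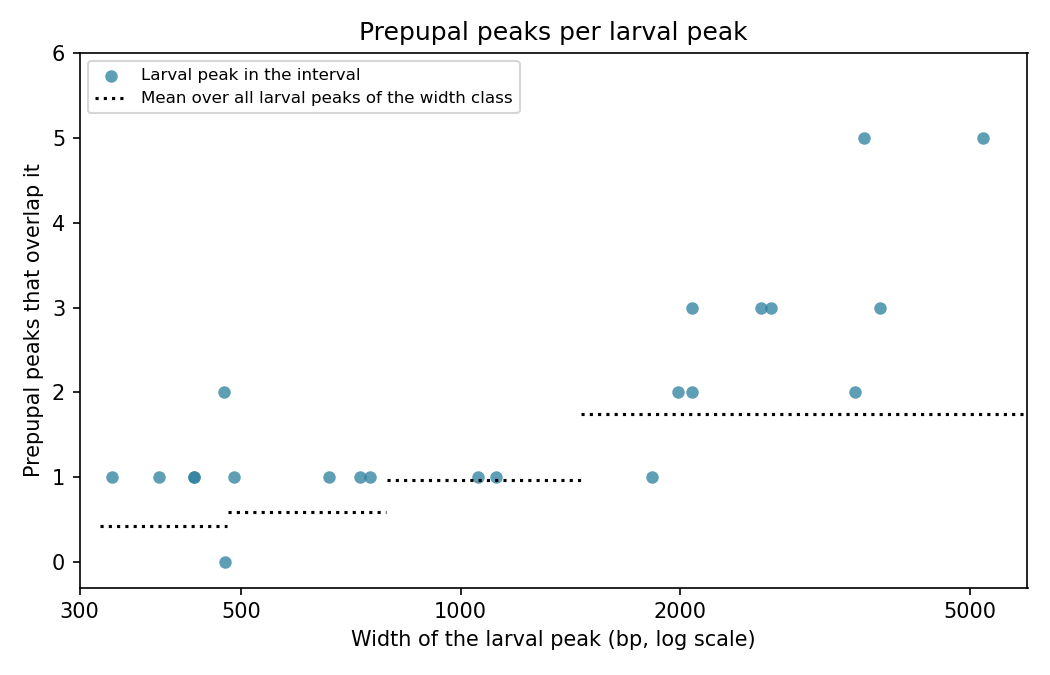
Number of prepupal peaks that overlap each of the 22 larval peaks, against the width of the larval peak (bp, log scale). Dotted lines are the means over all larval peaks of each width class, 0.43, 0.59, 0.97 and 1.74. The larval peaks of 5205 and 3578 bp meet 5 prepupal peaks each.

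The widest larval peak, 5205 bp from 17440755 to 17445959, was met by 5 prepupal peaks of 1094, 1971, 295, 1143 and 340 bp. They covered 79.5% of it, and 4 of them lay wholly inside. Embryos had 2 peaks there (widest 3447 bp), and S2 cells had a single peak of 7008 bp, the widest of the S2 list in the interval, which covered 86.4% of it. The S2 peak met 2 larval, 5 prepupal and 3 embryonic peaks. At this place the 4 lists thus differed in the number of pieces more than in the sequence they covered.

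A second larval peak with 5 prepupal counterparts, 3578 bp from 17455731 to 17459308, lay wholly under an S2 peak of 5506 bp. Its prepupal peaks measured 408, 1030, 852, 463 and 569 bp and covered 69.3% of it. Embryonic peaks covered 96.5%, in 3 peaks.

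Larval peaks with 3 prepupal counterparts were found at 4 places. The one from 17474031 to 17477797 (3767 bp) was covered to 90.8% by prepupal peaks of 1491, 1444 and 933 bp, but to only 23.0% by embryonic peaks. The one from 17452985 to 17455654 (2670 bp) was covered to 60.7%, by peaks of 1011, 329 and 408 bp. For the one from 17438051 to 17440632 (2582 bp) the prepupal peaks measured 582, 999 and 1094 bp and covered 64.8%. For the one from 17407443 to 17409522 (2080 bp) they measured 362, 371 and 1476 bp and covered 85.7%. In all 4, part of the larval extent lay between or beyond the prepupal peaks.

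The 4 larval peaks with 2 prepupal counterparts resembled division less. From 17430334 to 17433814, a larval peak of 3481 bp was covered to 98.1%, mostly by a single prepupal peak of 3843 bp, the widest of the prepupa list in the interval. From 17415357 to 17417345 (1989 bp) the cover was 97.2%, with a prepupal peak of 2095 bp beside one of 484 bp. From 17485115 to 17487193 (2079 bp) it was 71.9%, and the larger of the prepupal peaks, 2959 bp wide, reached across 3 larval peaks. From 17424366 to 17424838 the larval peak of 473 bp lay across the gap between prepupal peaks of 393 and 345 bp, each of which ran past its edge. Overlap with 2 or more peaks therefore included cases in which the prepupal peaks were no finer than the larval one.

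Counted strictly, 3 larval peaks had 2 or more prepupal peaks wholly inside them, and 7 of the 10 had at least 1. In all, 16 of the 51 prepupal peaks lay wholly inside a larval peak. Shares over the whole lists were not computed for these strict counts, so they cannot be set against a background. The reverse of division also occurred: 6 prepupal peaks (11.8%, 4.4 to 23.9) overlapped 2 or more larval peaks, where the list share was 3.67%. Among prepupal peaks with a larval counterpart it was 6 of 34 in the interval and 6.0% in the whole list.

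The surplus of prepupal peaks lay partly among overlapping peaks and partly among peaks without a counterpart. Prepupae had 29 more peaks than larvae in the interval. Overlapping peaks supplied 13 of these, with 34 prepupal against 21 larval peaks, and peaks without a counterpart supplied 16, with 17 prepupal against 1 larval. The 13 is a net count, lowered by the 6 prepupal peaks that met 2 or more larval peaks, so it does not measure division. The part among overlapping peaks was 44.8% in the interval and 45.8% over the whole lists (1258 of 2749), so the interval was near the background in this respect.

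The 17 prepupal peaks without a larval counterpart were small, 220 to 556 bp with a median of 361 bp, and covered 6052 bp of the 38948 bp of prepupal sequence. The 34 with a counterpart had a median of 652 bp. Of the 17, 8 overlapped an embryonic peak alone, 3 an S2 peak alone and 5 both, and 1 overlapped neither. Embryonic or S2 peaks thus lay at 16 of them, and at 42.1% of the 3555 prepupal peaks of the whole list that had no larval counterpart. Among the 16, the prepupal peak from 17420527 to 17420846 shared only 2 bp with its embryonic peak. The narrowest larval peak of the whole list was 320 bp wide, and 5 of the 17 were narrower than that. The lists had unequal lower limits of width, and the part of this in the surplus was not tested. With peaks of at least 340 bp alone, which all 4 lists could hold, prepupae had 42 peaks and larvae 21. Larval peaks that met 2 or more prepupal ones numbered 10, as before. The dropped prepupal peaks that met any of these larval peaks measured 295 and 329 bp. They lay at larval peaks with 5 and 3 prepupal peaks, so the count of 10 could not fall. Whole-list counts at this limit are not given.

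The gaps that divide prepupal peaks inside larval peaks were short. Among the 50 gaps between neighbouring prepupal peaks, 20 lay inside a larval peak, with a median of 204.5 bp (56 to 588). The other 30 had a median of 887.5 bp. Of the 20, 10 were at most 200 bp long and 2 were over 500 bp. Embryonic peaks covered 12 of the 20 gaps from end to end and S2 peaks covered 12, with 8 covered by both and 4 by neither. Besides the larval peak, an embryonic or S2 peak spanned 16 of the 20 gaps. The share over such gaps of the whole lists was not computed. Embryonic peaks covered 48.11% and S2 peaks 33.00% of the interval, and how far this accounts for the count was not tested.

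Joining neighbouring peaks brought the lists closer. With gaps of at most 100, 200, 500 and 1000 bp joined, prepupae had 45, 37, 24 and 14 peaks and larvae had 19, 16, 13 and 11. The ratio of prepupal to larval peaks was 2.32 as called and 2.37, 2.31, 1.85 and 1.27 after these steps, and over the whole lists it was 1.42 as called and 1.37, 1.32, 1.18 and 1.11. Larval peaks as called that met 2 or more joined prepupal peaks numbered 8, 6, 2 and 0. The ratio thus barely moved up to gaps of 200 bp and was lower at 500 and 1000 bp. Peak callers join or part neighbouring signals by rules whose settings are not stated for these lists. In these counts, calling and binding cannot be told apart.

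**Figure D5:**
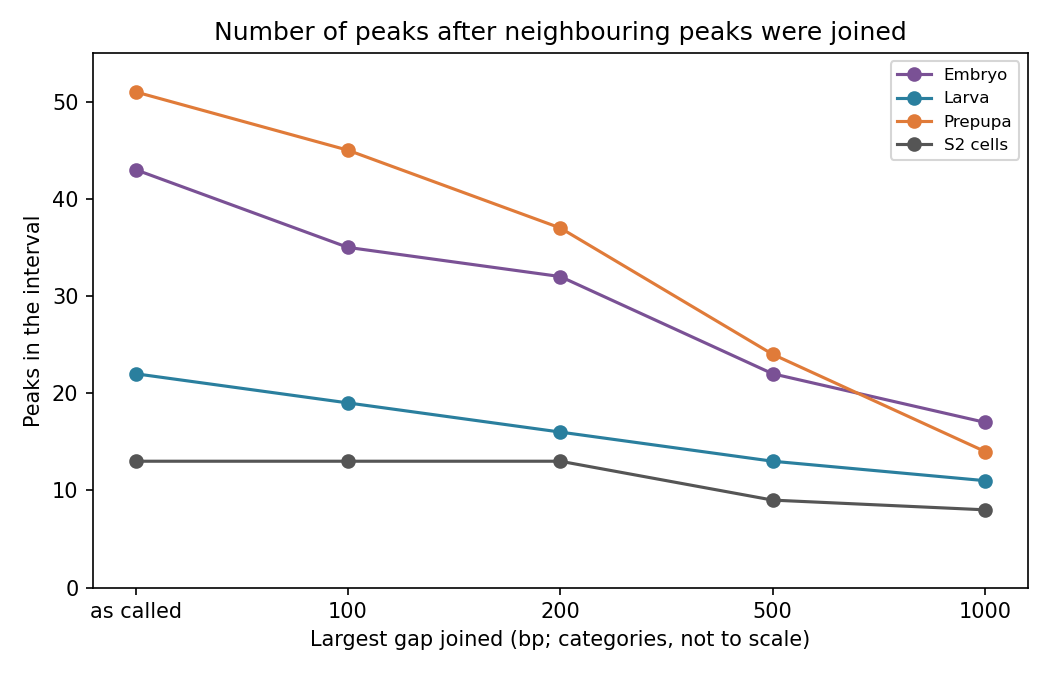
Number of peaks in the interval after neighbouring peaks of a list were joined across gaps up to the size on the horizontal axis (bp, categories). Prepupae have 51 peaks as called and 14 at 1000 bp, and larvae have 22 and 11.

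S2 and embryonic peaks also met several prepupal peaks each. Of the 13 S2 peaks, 7 met 2 or more prepupal peaks (list share 12.1%, or 29.4% of those with a prepupal counterpart). Of the same 13, 5 met 2 or more larval peaks (list share 5.97%, or 12.6% of those with a larval counterpart). The S2 peaks of 5960 bp (17412302 to 17418261) and 5506 bp (17455196 to 17460701) met 6 prepupal peaks each. The first was covered to 62.9% by prepupal peaks and to 33.4% by larval peaks, of which it met 1. The second was covered to 65.4% by prepupal peaks and to 80.3% by larval peaks, of which it met 3. Of the 43 embryonic peaks, 10 met 2 or more prepupal peaks (list share 5.67%, or 20.2% of those with a prepupal counterpart). The one of 3893 bp from 17457816 to 17461708 met 5 of them, which covered 43.9% of it. S2 and embryonic peaks of the interval were wider than their lists, with medians of 2330 against 711 bp and 640 against 537 bp. List shares by width class are given for larval peaks alone, and how far width accounts for these S2 and embryonic counts was not tested.

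The widest prepupal peaks were exceptions to the finer pattern. The prepupal peak of 3843 bp, from 17430776 to 17434618, met 2 larval peaks and 2 embryonic peaks, which covered 86.4% and 88.3% of it, and the S2 peak beneath it measured 1854 bp. The second, 2959 bp from 17482186 to 17485144, met 3 larval peaks, which covered 88.2%, and lay wholly under an S2 peak of 4821 bp. The third, 2095 bp from 17415042 to 17417136, met 1 larval peak of 1989 bp. In these places the prepupal peak was as wide as or wider than each larval peak it met.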

How the data were processed

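The authors deposited each peak list as the chromosome, start and end of every peak, with no score, height or p-value. The submitters' processing notes name BWA, MACS2 and dm3. Tool versions, the calling threshold, whether the 3 inputs entered the calling and any pooling are not stated there. The embryo list has no sample of its own.

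Peaks that overlap the interval by at least 1 bp were taken. Overlap, covered base pairs, merged regions and gaps were computed in Python 3.11.15 with numpy 2.4.6 and scipy 1.17.1, and figures were drawn with matplotlib 3.10.9. The overlap code was tested on simulated data. Exact binomial (Clopper-Pearson) 95% intervals cover the number of peaks only. With 1 library a group, no test was made. The peaks named are the 3 widest of each list, every larval peak with 2 or more prepupal peaks, the regions shared by all lists, and the widest unshared regions and longest stretches without peaks. Other peaks, bins and regions were named after their values were seen. The interval and these choices were made with earlier results of these data known.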

Additional observations from a re-analysis of the deposited data

How the results depend on the processing

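Of 120 recomputed values, 88 moved by less than 1.5 times (counts) or stayed in their binomial intervals (shares), and 32 did not. The intervals are wide where peaks are few, so a share can fall far and stay inside. With widths fixed at 500 bp, the S2 peaks that met embryonic, larval and prepupal peaks fell from 92.3, 76.9 and 84.6% to 69.2, 53.8 and 61.5%. All 3 shares count among the 88. Covered sequence was the same in all 4 lists when whole peaks were counted. No peak crossed the interval's limits, so this outcome was fixed in advance. The counts of peaks wholly inside the interval, or with their midpoint inside, were fixed likewise. These values are among the 88 and say nothing about robustness. Counts in the interval were 28 (embryo), 12 (larva), 22 (prepupa) and 8 (S2) when narrower peaks than each list's median were dropped, and 20 in embryos with equal numbers of widest peaks per list. Joining gaps of up to 500 bp left 22 embryonic, 13 larval and 24 prepupal peaks, and those of up to 1000 bp left 17 embryonic, 11 larval, 14 prepupal and 8 S2 peaks.

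With widths fixed at 500 bp, embryonic peaks overlapped larval, prepupal and S2 peaks in 34.9, 51.2 and 20.9% of cases, larval peaks overlapped embryonic, prepupal and S2 peaks in 72.7, 72.7 and 31.8%, and prepupal peaks overlapped embryonic, larval and S2 peaks in 41.2, 33.3 and 15.7%. With equal numbers of widest peaks, 80.0% of embryonic peaks overlapped larval ones and 72.2% of prepupal peaks embryonic ones. With peaks above the median width, 100% of larval peaks overlapped prepupal ones, 86.4% of prepupal peaks larval ones, and 100% of S2 peaks embryonic and prepupal ones. By the midpoint rule, 46.5% of embryonic peaks overlapped prepupal ones.

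The 10 larval peaks with 2 or more prepupal peaks became 6, 2 and 0 with prepupal gaps of up to 200, 500 and 1000 bp joined, and the reverse count was 6. Fewer peaks are left by construction when gaps are joined, when narrow peaks are dropped or when only the widest are kept. The reverse count is another quantity, not a changed setting of the 10. A fixed width of 500 bp shortens wider peaks and lengthens narrower ones. How far this or any other cause accounts for the changed shares was not tested. No paired analysis was possible because each group has 1 library.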
